A study of Mus musculus with 9 samples.

Results

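Among the 8090 EWS/ATF1 peaks listed for the mouse sarcoma line G1297, 1391 (17.2%, 95% Wilson interval 16.4 to 18.0%) were weak in G1297 and lay on peaks that were weak in sarcoma-iPSC MEFs as well. These weak shared sites were chosen by score and overlap. A G1297 peak entered when its own score was under 500, when it overlapped at least 1 MEF peak by at least 1 bp, and when each MEF peak that it overlapped also scored under 500. Across the whole G1297 list, 5084 peaks (62.8%) overlapped a MEF peak, so the weak shared sites made up 27.4% (26.2 to 28.6%) of the shared peaks. Because the rule used this overlap, nothing is read from these shares.

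The study compared where the fusion protein EWS/ATF1 sits in a sarcoma cell and in a fibroblast that carries the same inducible fusion gene. ChIP-Seq with an antibody against the HA tag of EWS/ATF1 was done 12 h after doxycycline (Dox) at 0.2 µg/ml. The labels number 2 such libraries for G1297 and give 1 for the MEFs, and 1 list of peaks per cell type was deposited. G1297 is a single mouse clear cell sarcoma line established from a mouse with Dox-controllable EWS/ATF1. The MEFs came from E13.5 chimeric embryos made with iPSCs that had been reprogrammed from sarcoma cells (Sarcoma iPSCs #3), after removal of head and viscera, and were kept under puromycin to retain iPSC-derived cells. Both groups therefore carry the inducible EWS/ATF1 alleles with the FLAG-HA tag and the Dox-dependent transactivator, and the MEFs are a mixed population of embryonic cells. G1297 libraries with Ebf1-KRAB or Nanog-KRAB and a G1297 ON input library were not analysed here.

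EWS/ATF1 joins the amino-terminal part of EWS, which recruits transcriptional coactivators, to the DNA-binding bZIP domain of ATF1. ATF1 belongs to the CREB/ATF family and binds the cyclic AMP response element, and the fusion is the hallmark of clear cell sarcoma of soft tissue. ChIP-Seq pulls down the DNA that a protein occupies through an antibody, reads it by sequencing, and leaves it to MACS to call a peak where reads pile up beyond the local background.

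The score of a peak is -10 times the log10 of its MACS P value. The lists were limited to peaks under a P value of 1e-09, which is a score of 90, and the limit of 500 stands for a P value of 1e-50. A score rises with the depth of a library as well as with enrichment, and the depth is unknown because the lists hold no read counts. Scores of the cell types were therefore also expressed as percentiles within each list. With 1 list per cell type and no values per replicate, no difference could be set against a spread between replicates. The intervals given for shares are Wilson intervals that cover counting error only, and neighbouring peaks are not independent of each other. All coordinates are those of mouse build mm9.

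Most peaks of either list were weak by this limit. In G1297, 5592 of 8090 peaks (69.1%) scored under 500, and 55.8% of these overlapped a MEF peak of any score. In the MEFs, 17411 of 27130 peaks (64.2%) scored under 500, and 11.1% of these overlapped a G1297 peak. The 1391 weak shared sites were 24.9% (23.8 to 26.0%) of the weak G1297 peaks. Their 1385 MEF partners were 7.95% (7.56 to 8.37%) of the weak MEF peaks. The shares differ because the MEF list is the longer one, and the rule fixed both of them. They are compared with the 1436 shared G1297 peaks that were strong in both lists, the 526 that were strong in G1297 and weak in MEFs, and the 1729 that were weak in G1297 and strong in MEFs. A strong G1297 peak was placed in the first of these classes when at least 1 of its MEF partners scored 500 or more, and a weak one in the last when all of them did. Another 2 weak G1297 peaks, with MEF partners on both sides of the limit, belong to none of these classes.

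The scores of the weak shared sites are a description, since they chose the sites. In G1297 they ran from 90.1 to 498 with a median of 175 and quartiles of 125 and 276. Their MEF partners ran from 90.2 to 499.9 with a median of 225 and quartiles of 145 and 336. The sites thus filled the permitted range in both cell types, and most of them lay in its lower part. In G1297, 531 sites (38.2%) scored under 150, 435 scored from 150 to under 250, and 425 scored from 250 to under 500. By the highest score among a site's MEF partners the order was the other way, with 371 sites (26.7%) under 150, 413 from 150 to under 250, and 607 (43.6%) from 250 to under 500.

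The scores of a site in G1297 and in MEFs were only weakly related. Over the 1369 sites with a single MEF partner that overlapped no other G1297 peak, Spearman's correlation between the scores was 0.07 and Pearson's was 0.06. Over all 4901 such pairs of shared peaks, with no limit on the score, they were 0.28 and 0.28. The points share the same pair of lists, and the limit of 500 narrows the range of the sites on both axes. The scores also chose the sites, so the correlations within them are a description only. The MEF score was the higher in 806 pairs and the G1297 score in 563, whereas by percentile within each list the split was 696 to 673. The median site stood at percentile 34.3 of the G1297 list and its partner at percentile 37.9 of the MEF list. In 412 pairs the percentiles lay within 10 points of each other, and in 188 they lay more than 40 points apart.

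**Figure D1:**
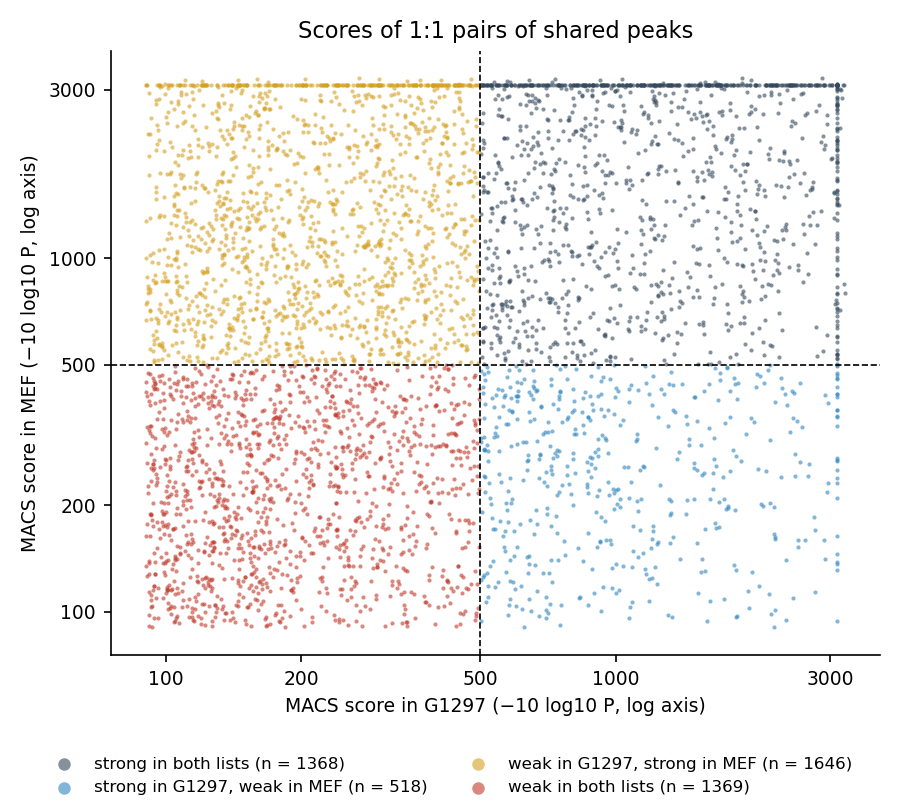
MACS score in MEFs against MACS score in G1297, both on log axes, for the 4901 shared G1297 peaks with a single MEF partner that overlapped no other G1297 peak; each point is a pair, and dashed lines mark the score of 500. The 1369 weak pairs (red) fill the lower left field without an evident slope, and the rows of points at 3100 are a score that many strong peaks share.

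The pairs that came nearest to the limit on both sides were spread over several chromosomes. The pair with the highest lower score lay at chr8:48053557-48054443, with 486 in G1297 and 469 in MEFs. It was followed by chr3:84081989-84082913 with 484 and 461, and by chr5:20149478-20150465 with 463 and 459. The surroundings of these 3 sites differed. The chromosome 8 site had no other peak within 20.3 kb and no strong peak within 76.8 kb. The chromosome 3 site lay 114 bp from a further MEF peak of score 153 and 449 kb from the nearest strong peak. The chromosome 5 site lay 8.23 kb from a MEF peak of score 1058.

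The next 3 pairs of this kind were wider and less well aligned. At chr11:56103963-56105120 the scores were 472 in G1297 and 437 in MEFs, with midpoints 148 bp apart. At chr7:73054064-73055081 they were 435 and 458, with midpoints 178.5 bp apart. At chr13:58316951-58318252 they were 434 and 441, with midpoints 161.5 bp apart. The chromosome 13 site was the 1 of these 6 with a strong G1297 peak within 12.5 kb, a peak of score 3100 that lay 4.23 kb away. In all, 17 pairs scored at least 400 in both cell types.

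The faintest pairs sat barely above the calling threshold in both cell types and still overlapped over most of their length. At chr8:47060509-47061157 the scores were 91.5 in G1297 and 90.9 in MEFs, and 545 bp of the 649 bp G1297 peak were covered. At chr4:151004483-151005021 they were 93.0 and 90.6, with 496 of 539 bp covered. At chr10:107831219-107831897 they were 94.1 and 95.8, with midpoints 3.5 bp apart. At chr19:6277552-6278166 they were 96.2 and 95.8, with midpoints 43.5 bp apart. The chromosome 8 site was also remote, with its nearest other peak 110 kb away, whereas the chromosome 4 site belonged to a group of weak shared sites described further on.

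Some sites stood near the top of the permitted range in one cell type and at its floor in the other. The largest difference in favour of G1297 was at chr6:141433570-141434774, with a score of 487 (percentile 68.4) in G1297 and 94.4 (percentile 2.24) in MEFs. Similar differences were found at chr11:119512052-119512892, with 450.1 and 92.2, and at chr12:74903383-74904159, with 441 and 91.1. In the other direction, chr19:60695731-60696407 scored 91.2 (percentile 0.77) in G1297 and 473 (percentile 62.6) in MEFs. It was followed by chr19:43995787-43996284 with 92.0 and 471, and by chr6:91827677-91828235 with 90.1 and 447. These sites are weak in both lists by the rule, yet their ranks in the lists lay more than 60 points apart. In each of the last 3 the G1297 peak lay wholly inside the MEF peak, with midpoints 51.0, 54.5 and 9.5 bp apart.

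The limit of 500 fell within a continuous range of scores. In G1297 the sites just inside it were chr1:43664417-43665210 at 497.6, chr2:164577789-164578670 at 497.4 and chr5:141430412-141431418 at 496.7. Just outside it, with MEF partners under 500, were chr4:47257176-47257989 at 500.7, chr6:101165101-101166141 at 501.3 and chr4:82095849-82096775 at 502.6. On the MEF side the partners just inside belonged to chr14:45621437-45622301 at 499.9, chr17:47010981-47011821 at 499.6 and chr2:71481952-71482579 at 498.6. Just outside were the partners of chr1:4696034-4696899 at 501.5, chr15:52974197-52975127 at 502.1 and chr4:150287481-150288375 at 502.2. On both axes the scores on the 2 sides of the limit lay close together.

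A weak G1297 peak was a weak shared site about as often whatever its score. The share was 24.5% (22.8 to 26.4%) of the 2164 peaks under 150, 26.0% (24.0 to 28.2%) of the 1672 peaks from 150 to under 250, and 24.2% (22.3 to 26.3%) of the 1756 peaks from 250 to under 500. The other outcomes ran in opposite directions. Peaks that lay on a strong MEF peak made up 24.2%, 30.1% and 39.98% of these bins from low to high score, and peaks without any MEF partner made up 51.2%, 43.8% and 35.8%. Seen from the MEF list, 6.26% (5.67 to 6.90%), 7.62% (6.94 to 8.35%) and 9.93% (9.20 to 10.7%) of the weak peaks in these bins were partners of a weak shared site. These shares use the scores that chose the sites and describe the lists only.

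Nearly all weak shared sites were simple pairs of 1 G1297 peak and 1 MEF peak. Of the 1391 sites, 1369 (98.4%, 97.6 to 99.0%) overlapped a single MEF peak that overlapped no other G1297 peak. The same held for 95.3% (94.0 to 96.2%) of the peaks strong in both lists, 98.5% (97.0 to 99.2%) of those strong in G1297 and weak in MEFs, and 95.2% (94.1 to 96.1%) of those weak in G1297 and strong in MEFs. The rule set a condition on every MEF partner of a site, whereas 1 strong partner was enough for a peak strong in both lists. The way the classes were formed thus bears on these shares, and nothing is read from their differences.

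The exceptions were few. Only 3 sites lay on more than 1 MEF peak, each on a neighbouring pair. The site chr3:131669017-131669864, with a score of 193, overlapped MEF peaks of 103 and 123, and chr9:44826185-44827495, with a score of 406, overlapped MEF peaks of 93.6 and 122. The third, chr9:66459252-66460501, scored 447 on MEF peaks of 91.4 and 151. In each case the G1297 list held 1 peak where the MEF list held a pair of lower scores. In the other direction, 10 MEF peaks each overlapped 2 G1297 peaks. Among them was chr1:171485126-171485779, which scored 134 and lay on G1297 peaks of 111 and 99.4. Another was chr10:13090190-13091259, which scored 297 and lay on G1297 peaks of 91.0 and 157. The MEF peak did not always have the higher score, and several of the 10 scored below 1 of their G1297 peaks. In 1 of these cases that G1297 peak was strong in both lists and thus not a weak shared site.

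Within the pairs the peaks of the cell types were closely aligned. The median distance between midpoints was 48 bp (quartiles 22 and 87 bp) in weak shared sites, against 67 bp in pairs strong in both lists, 62.5 bp in pairs strong in G1297 and weak in MEFs, and 79.5 bp in pairs weak in G1297 and strong in MEFs. Midpoints lay within 100 bp of each other in 1095 of 1369 weak pairs (80.0%, 77.8 to 82.0%). The corresponding shares were 66.2% (63.6 to 68.6%), 67.6% (63.4 to 71.5%) and 57.4% (55.0 to 59.8%) in the other classes. No summit position was given in the lists, so the midpoint stands in for it. The pairs were chosen by overlap, which limits the distance between midpoints, and more so for narrow peaks. These distances are therefore a description. The MEF midpoint lay at the higher coordinate in 714 of 1366 weak pairs with unequal midpoints (52.3%, 49.6 to 54.9%), an interval that includes an even split.

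**Figure D2:**
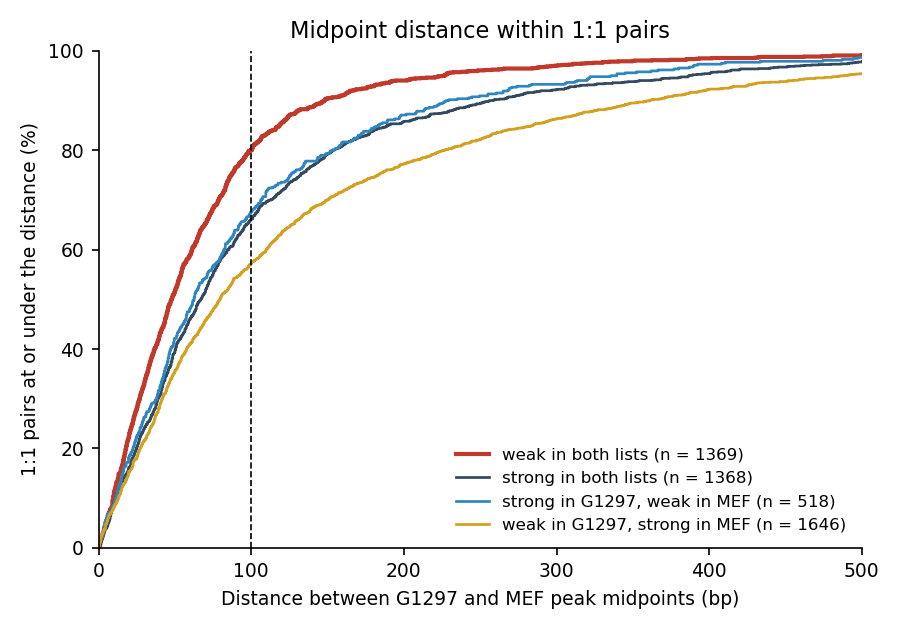
Cumulative share of pairs (%) against the distance between the midpoints of the G1297 and the MEF peak (bp), for pairs of a single peak in each list, by score class; the dashed line marks 100 bp and the axis ends at 500 bp. At 100 bp the curve of the weak pairs (red) stands at 80.0% and the other curves between 57.4% and 67.6%.

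The weak pairs also had the narrowest peaks by median width in each list. Median widths in the weak pairs were 724 bp in G1297 and 863 bp in MEFs, against 1210 and 1432.5 bp in pairs strong in both lists and 1140 and 921 bp in pairs strong in G1297 and weak in MEFs. Pairs weak in G1297 and strong in MEFs, which had the largest midpoint distance, were 762 and 1359.5 bp wide, narrower in each list than pairs strong in both. Expressed as a percentage of the narrower peak's width, the median midpoint distance was 6.83% in weak pairs, 5.51% in pairs strong in both, 6.88% in pairs strong in G1297 and weak in MEFs, and 10.2% in pairs weak in G1297 and strong in MEFs. When pairs were limited to those with both peaks under 1000 bp wide, a limit chosen after seeing the data, midpoints lay within 100 bp in 86.3% (84.1 to 88.2%) of 1057 weak pairs. In the other classes the share was then 83.6% (75.6 to 89.4%) of 110 pairs strong in G1297 and weak in MEFs and 92.0% (84.5 to 96.1%) of 88 pairs weak in G1297 and strong in MEFs. Among pairs strong in both lists only 20 were so narrow, 19 of them with midpoints within 100 bp (76.4 to 99.1%). The weak shared sites thus had the shortest median distance in base pairs. Relative to width, the median was lower in the pairs strong in both lists. Among narrow pairs, the intervals of the other classes all overlapped that of the weak pairs. How far width accounts for the distance was not tested further.

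Alignment hardly varied with the score of the weak sites. Midpoints lay within 100 bp in 80.8% (77.2 to 84.0%) of the pairs with a G1297 score under 150, 80.7% (76.7 to 84.2%) of those from 150 to under 250, and 78.2% (74.0 to 81.9%) of those from 250 to under 500. By MEF score the shares were 83.7% (79.5 to 87.1%), 78.9% (74.6 to 82.6%) and 78.5% (75.0 to 81.6%). Within each cell type the intervals overlapped, and no bin fell below 78.2%.

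The MEF peak was the wider one in 1029 of 1369 weak pairs (75.2%, 72.8 to 77.4%). The share was 76.3% (74.0 to 78.5%) in pairs strong in both lists, 17.0% (14.0 to 20.5%) in pairs strong in G1297 and weak in MEFs, and 99.2% (98.7 to 99.5%) in pairs weak in G1297 and strong in MEFs. In 736 weak pairs (53.8%, 51.1 to 56.4%) the G1297 peak lay wholly inside the MEF peak, and in 156 (11.4%, 9.82 to 13.2%) the MEF peak lay inside the G1297 peak. In the other 477 (34.8%, 32.4 to 37.4%) each peak reached past the other at 1 end. Shifted pairs of this last kind made up 26.0% (23.8 to 28.4%) of pairs strong in both lists, 30.5% (26.7 to 34.6%) of pairs strong in G1297 and weak in MEFs, and 4.68% (3.76 to 5.81%) of pairs weak in G1297 and strong in MEFs. Only the interval of the pairs strong in G1297 and weak in MEFs overlapped that of the weak pairs. Width comes from the same peak calls as the score, so these values are a description. The median overlap was 683 bp, and the median covered share was 100% of the G1297 peak and 82.5% of the MEF peak.

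A small number of pairs had distant midpoints or a short overlap. Midpoints lay more than 300 bp apart in 41 weak pairs and more than 500 bp apart in 13, and the overlap was under 200 bp in 6. The largest distance, 863 bp, was at chr1:38249927-38250641, where 82 bp were shared with a MEF peak at chr1:38250560-38251734. At chr2:93888214-93889054 the midpoints were 820 bp apart with an overlap of 51 bp, and at chr8:10806829-10807706 they were 778 bp apart with an overlap of 114 bp. The last of these lay 5.67 kb from a MEF peak of score 3100. These pairs count as shared under the 1 bp rule although their midpoints lie farther apart than the width of a typical weak G1297 peak.

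Wider peaks had higher scores among the weak shared sites, as in the whole lists. Spearman's correlation was 0.81 over the 1391 G1297 peaks and 0.78 over the 1385 MEF partners, beside 0.91 over all 8090 G1297 peaks and 0.90 over all 27130 MEF peaks, and the limit of 500 narrows the range of the sites. The median G1297 width was 628 bp for scores under 150, 745 bp from 150 to under 250 and 867 bp from 250 to under 500. Score and width come from the same call, and the points share a library and a list. The widest sites departed from this relation. They were chr6:47712049-47714323 (2275 bp, score 123), chr6:47701833-47703843 (2011 bp, score 143) and chr8:19783631-19785296 (1666 bp, score 151). All 3 scored below the median of the sites, and their MEF partners were low as well, with scores of 125, 170 and 92.5. The chromosome 6 sites lay in the same group of weak shared sites, and the chromosome 8 site was the most remote of all.

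Weak shared sites had a strong peak near them less often than the other shared peaks when strong peaks of either list were counted, but not against every class when the lists were counted separately. A strong peak of either list, the site's own partners left out, lay within 12.5 kb of 386 of 1391 sites (27.8%, 25.5 to 30.2%). The share was 47.2% (44.6 to 49.8%) for peaks strong in both lists, 37.6% (33.6 to 41.9%) for peaks strong in G1297 and weak in MEFs, and 40.9% (38.6 to 43.2%) for peaks weak in G1297 and strong in MEFs. No other peak of any score lay within 12.5 kb of 630 sites (45.3%, 42.7 to 47.9%), against 26.3% (24.0 to 28.6%), 36.1% (32.1 to 40.3%) and 33.2% (31.0 to 35.5%). On both measures the interval of the weak shared sites lay apart from those of the other 3 classes. The order of the classes was the same with distances of 5 kb and 50 kb, at which 15.5% (13.7 to 17.5%) and 58.2% (55.5 to 60.7%) of the weak shared sites had a strong peak nearby. At 5 kb, however, the intervals overlapped with those of the peaks strong in G1297 and weak in MEFs, of which 19.2% (16.1 to 22.8%) had a strong peak and 60.1% (55.8 to 64.2%) had no other peak, against 64.8% (62.2 to 67.2%) of the weak shared sites.

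By list, the weak shared sites did not stand apart from all other shared classes. A strong G1297 peak lay within 12.5 kb of 14.45% (12.7 to 16.4%) of the sites and of 14.9% (13.3 to 16.6%) of the peaks weak in G1297 and strong in MEFs, against 26.6% (24.4 to 28.9%) of the peaks strong in both lists and 25.9% (22.3 to 29.8%) of those strong in G1297 and weak in MEFs. A strong MEF peak lay near 23.1% (20.9 to 25.4%) of the sites and 27.4% (23.7 to 31.3%) of the peaks strong in G1297 and weak in MEFs, with overlapping intervals, against 39.6% (37.1 to 42.2%) of the peaks strong in both and 37.5% (35.3 to 39.8%) of those weak in G1297 and strong in MEFs. For strong neighbours in a given list, the intervals of the sites lay apart from those of the shared peaks that were strong in that list and overlapped that of the other class weak in it.

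**Figure D3:**
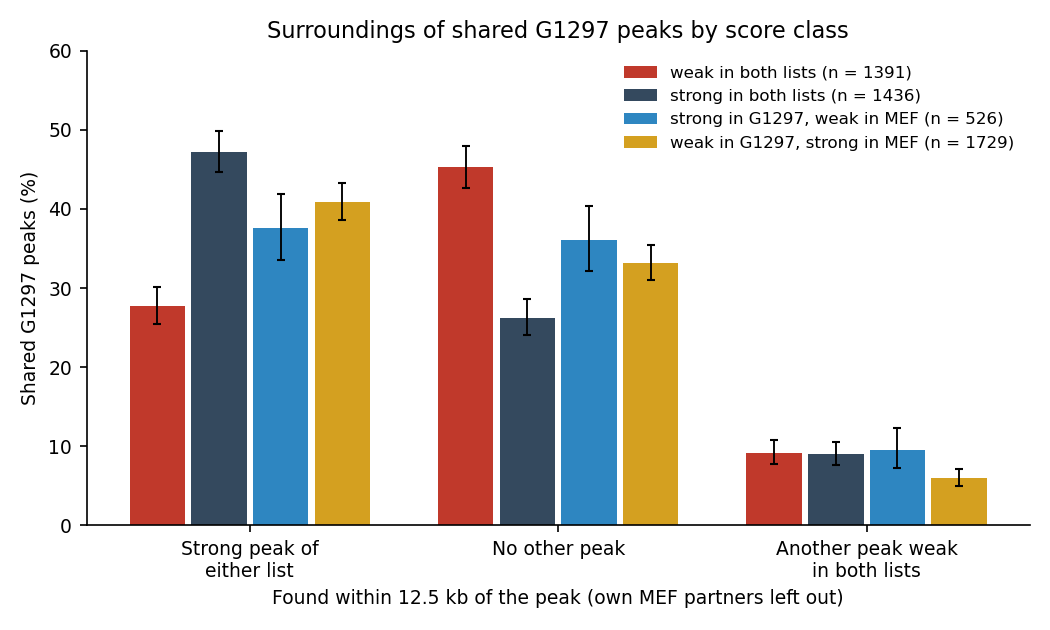
Share of shared G1297 peaks (%) with a strong peak of either list, with no other peak, or with another weak shared site within 12.5 kb, by score class; bars are shares and error bars 95% Wilson intervals. Weak shared sites (red) have the lowest bar for strong neighbours, 27.8%, and the highest for no other peak, 45.3%.

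With both lists counted, similar shares were seen in weak G1297 peaks without any MEF partner. Of these 2470 peaks, 30.4% (28.6 to 32.2%) had a strong peak within 12.5 kb and 45.7% (43.8 to 47.7%) had no other peak. Both intervals overlapped those of the weak shared sites. For the 536 strong G1297 peaks without a MEF partner the shares were 32.6% (28.8 to 36.7%) and 39.0% (35.0 to 43.2%). Their intervals overlapped those of the sites only narrowly, and no difference was tested. Over all 8090 G1297 peaks these shares were 35.8% (34.8 to 36.9%) and 38.4% (37.4 to 39.5%). The kinds of strong neighbour differed. A strong G1297 peak was near 20.6% (19.1 to 22.3%) of the unshared weak peaks, an interval above that of the weak shared sites, while a strong MEF peak was near 21.0% (19.5 to 22.7%), an interval that overlapped theirs. For the unshared strong peaks these shares were 26.1% (22.6 to 29.999%) and 19.6% (16.5 to 23.2%), and for all G1297 peaks 20.1% (19.3 to 21.0%) and 28.5% (27.6 to 29.5%).

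The median weak shared site lay 9.67 kb from its nearest other peak and 35.1 kb from its nearest strong peak. These distances were 4.15 and 14.3 kb for peaks strong in both lists, 7.30 and 23.5 kb for peaks strong in G1297 and weak in MEFs, and 5.80 and 20.3 kb for peaks weak in G1297 and strong in MEFs. For G1297 peaks without a MEF partner they were 10.7 and 32.3 kb when weak and 8.39 and 30.9 kb when strong, and over all G1297 peaks they were 7.35 and 25.1 kb. Another weak shared site was 287 kb away at the median. The share with a strong neighbour was 25.4% (21.9 to 29.3%) for sites with a G1297 score under 150 and 28.0% (24.0 to 32.4%) and 30.4% (26.2 to 34.9%) in the higher bins, with intervals that overlapped.

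The nearest other peak was most often a MEF peak without a G1297 partner, at 759 sites (54.6%, 51.9 to 57.2%). It was a G1297 peak without a MEF partner at 236 sites (17.0%), a shared MEF peak at 267 (19.2%) and a shared G1297 peak at 129 (9.27%). The MEF list holds 27130 peaks and the G1297 list 8090, and 11.1% of the weak MEF peaks overlapped a G1297 peak, which bears on this order. The order was not counted for all G1297 peaks or other classes, so nothing is read from it. The nearest other peak was strong at 485 sites (34.9%, 32.4 to 37.4%) and lay within 1000 bp at 167 (12.0%, 10.4 to 13.8%). In the whole lists, 2498 of 8090 G1297 peaks and 9719 of 27130 MEF peaks were strong. Among the 386 sites with a strong peak within 12.5 kb, the nearest strong peak was itself shared between the cell types at 73 sites where it was a G1297 peak and at 154 where it was a MEF peak. It was without a partner at 125 sites where it was a MEF peak and at 34 where it was a G1297 peak.

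The sites fell into 5 kinds by what lay within 12.5 kb. Beside the 630 isolated sites, 375 (27.0%) had weak neighbours only, 185 (13.3%) had a strong MEF peak but no strong G1297 peak, 65 (4.67%) had a strong G1297 peak but no strong MEF peak, and 136 (9.78%) had both. Median G1297 scores were 169 for isolated sites, 185 with weak neighbours, 170 with a strong MEF peak, 255 with a strong G1297 peak and 173 with both. The corresponding medians of the MEF scores were 215, 231, 239, 183 and 246. Both scores chose the sites and the kinds differ in size, so no order is read from these medians. Midpoints lay within 100 bp in 84.3% (81.2 to 86.9%) of the pairs at isolated sites and in 75.6% (70.9 to 79.7%) of those with weak neighbours only. With a strong neighbour the shares were 79.9% (73.5 to 85.0%) beside a strong MEF peak, 70.8% (58.8 to 80.4%) beside a strong G1297 peak and 76.3% (68.4 to 82.8%) beside both.

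Individual sites near the limit of 500 illustrate these kinds. The site chr14:45621437-45622301 lay 2.41 kb from a MEF peak of score 1904, and chr2:164577789-164578670 lay 2.7 kb from a G1297 peak of score 1196. In contrast, chr1:43664417-43665210 had its nearest other peak, a MEF peak of score 129, at 57.4 kb and its nearest strong peak at 443 kb. A score close to the limit was thus found both beside a strong peak and far from any.

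The most remote sites were separated from all other peaks of both lists by at least 450.8 kb. The site chr8:19783631-19785296 lay 967 kb from the nearest other peak of either list, with a score of 151 in G1297 and 92.5 in MEFs and midpoints 0.5 bp apart. It was followed by chr4:110746163-110746948 at 759 kb, with 197 and 336, and by chr17:33666451-33667176 at 556 kb, with 130.0 and 238. The site chr18:9957768-9958398 lay 451 kb from the nearest other peak, with 130.5 and 237. All 4 were called in both cell types at scores far below 500, with midpoints no more than 65.5 bp apart.

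Weak shared sites seldom came in groups. When sites at most 12.5 kb apart were joined, the 1391 sites formed 1324 groups, of which 1263 held a single site, 55 held 2 and 6 held 3. Another weak shared site lay within 12.5 kb of 128 sites (9.20%, 7.79 to 10.8%), against 8.98% (7.61 to 10.6%) of the peaks strong in both lists, 9.51% (7.29 to 12.3%) of those strong in G1297 and weak in MEFs, and 5.96% (4.94 to 7.17%) of those weak in G1297 and strong in MEFs. The interval of the sites overlapped those of the first 2 of these classes and lay above that of the last. That separation depended on the settings. The share of the sites was 8.28% (6.94 to 9.85%) with an overlap of 50% of the shorter peak. It was 8.16% (6.82 to 9.7%) with midpoints within 500 bp and 7.37% (5.96 to 9.1%) with a limit of 400. These intervals overlap that given here for the last class, for which the alternatives were not run. The share was 7.37% (6.40 to 8.47%) for unshared weak G1297 peaks, 7.46% (5.53 to 10.0%) for unshared strong ones and 7.81% (7.25 to 8.42%) for all G1297 peaks, and each of these intervals overlapped that of the sites.

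The comparison depended on the distance. Within 5 kb another weak shared site lay near 5.68% (4.58 to 7.02%) of the sites, above the 2.66% (2.00 to 3.53%) of the peaks weak in G1297 and strong in MEFs and the 3.40% (2.76 to 4.19%) of the unshared weak peaks. The intervals overlapped with the 5.22% (4.19 to 6.50%) of the peaks strong in both lists and the 5.51% (3.87 to 7.81%) of those strong in G1297 and weak in MEFs. They also overlapped with the 4.29% (2.88 to 6.36%) of the unshared strong peaks and the 4.15% (3.74 to 4.61%) of all G1297 peaks. Sites on the same MEF peak count as neighbours of each other. The classes exclude this for unshared peaks and for peaks weak in G1297 and strong in MEFs. Of the MEF peaks described above that overlapped 2 G1297 peaks, all but 1 held 2 weak shared sites. The shares were not recomputed without these sites, so nothing is read from the higher shares at 5 kb and 12.5 kb. Within 50 kb the share was 18.6% (16.7 to 20.8%), below the 24.7% (22.6 to 27.0%) of the peaks strong in both lists, and its interval overlapped those of the other classes and the 20.05% (19.2 to 20.9%) of all G1297 peaks.

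The groups of 3 differed in whether a strong peak lay among them. At chr13:99045358-99050162, the most compact with 4.8 kb, the sites scored 378, 183 and 318 in G1297 and 381, 479 and 259 in MEFs. They flanked a shared peak that was strong in both lists, with 2148 in G1297 and 1505 in MEFs. At chr5:144266811-144279515 the sites scored 358, 181 and 244 in G1297 and 153, 95.8 and 472 in MEFs. Between the first and the second of them lay 3 G1297 peaks without a MEF partner, 1 of which scored 707, and a MEF peak of 1104 lay beyond the last site.

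The other groups held only weak peaks between their ends. At chr4:150993438-151009592 the sites scored 246, 93.0 and 449 in G1297 and 292, 90.6 and 182 in MEFs, and no strong peak of either list lay within 12.5 kb of the group. At chr5:147870750-147887372 they scored 307, 146 and 98.6 in G1297 and 171, 232 and 109 in MEFs, and the additional MEF peak between them scored 262. The group at chr6:47689123-47714323 spanned 25.2 kb and held 2 of the 3 widest sites, with G1297 scores from 93.1 to 143 and MEF scores from 104 to 170. At chr7:36929836-36943049 the scores ran from 92.3 to 496 in G1297 and from 125 to 427 in MEFs, and a G1297 peak of 787 lay within 12.5 kb of this group. The order of the 3 scores differed between the cell types in 5 of the 6 groups and was the same in the chromosome 6 group. The site with the lowest score was the same in that group, in the chromosome 4 group and in both chromosome 5 groups, and differed in the groups on chromosomes 7 and 13.

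**Figure D4:**
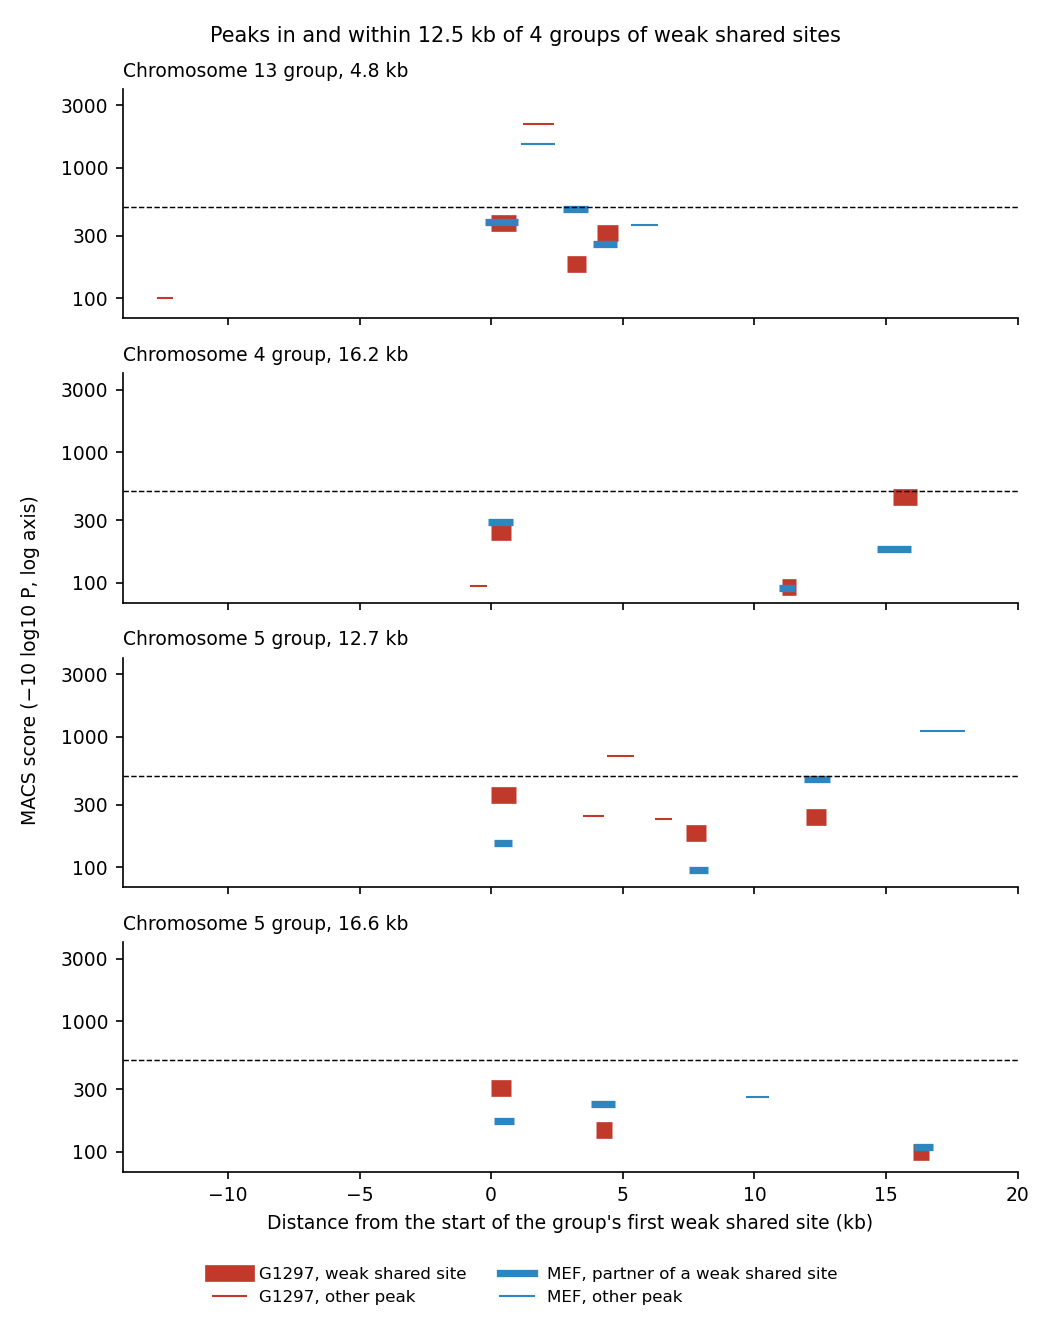
MACS score (log axis) of each peak in and within 12.5 kb of 4 groups of 3 weak shared sites, against the distance from the start of the first site (kb); each segment spans a peak and is centred on its score, thick segments are weak shared sites (red, G1297) and their partners (blue, MEF), thin ones are other peaks, and the dashed line marks 500. The chromosome 13 group surrounds a shared peak of 2148 in G1297 and 1505 in MEFs, and the chromosome 4 group has no peak above the line.

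Weak shared sites were found on all 19 autosomes and on X. Chromosome 5 held the most, 110 sites (7.91%, 6.60 to 9.45% of all sites), beside 7.45% of all G1297 peaks and 6.50% of the other shared peaks. Chromosome 14 held 36 (2.59%, 1.88 to 3.56%), beside 3.07% and 3.87%, and X held 11 (0.79%, 0.44 to 1.41%), beside 0.46% and 0.41%. The distribution therefore largely followed that of the G1297 list. As a share of the shared peaks of a chromosome, the sites ranged over the autosomes from 20.1% (14.9 to 26.6%) on chromosome 14 to 31.4% (26.8 to 36.5%) on chromosome 5, around the 27.4% of the whole list. The share on X was 42.3%, but over 26 shared peaks its interval ran from 25.5 to 61.1%.

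On this basis chromosome 14 was the only one of these 20 whose interval did not include 27.4%. As a share of the weak G1297 peaks, which leaves the strong peaks out of account, chromosome 14 had 23.4% (17.4 to 30.7%), an interval that includes the 24.9% of the whole list. On that basis chromosome 10, with 20.5% (16.8 to 24.7%), was the only one of the 20 whose interval did not include the value of the whole list, while as a share of its shared peaks it had 25.9% (21.4 to 30.9%). With 20 intervals set side by side and no test, no chromosome is singled out. The paper reports chromosomal aberrations in G1297 and genetic abnormalities that the MEFs share with it. Copy number was not taken into account in the shares or scores given by chromosome. The median G1297 score of the sites was 229 on chromosome 14 and 146 on X, the highest and the lowest of the 20.

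**Figure D5:**
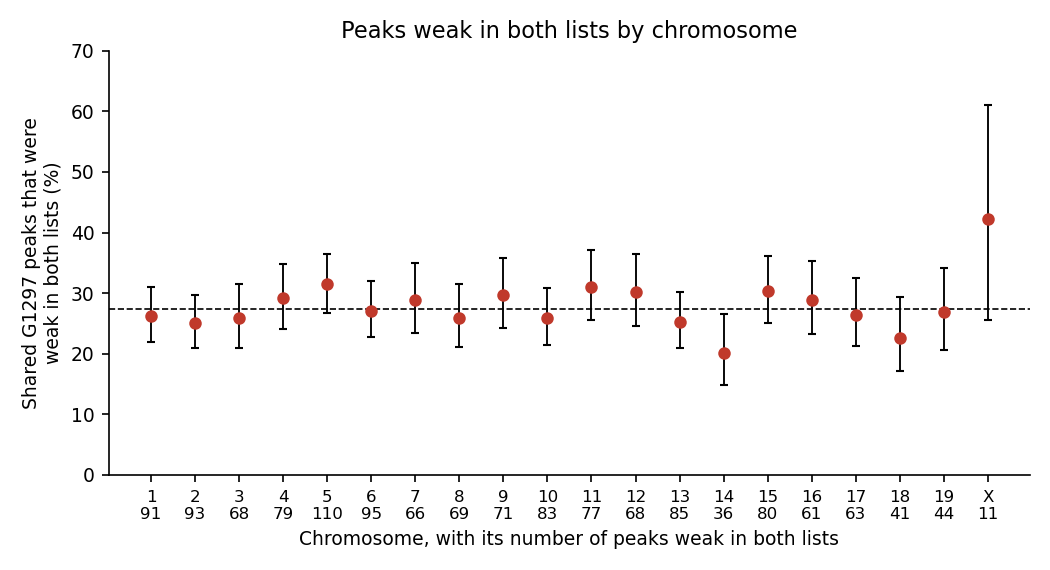
Share of the shared G1297 peaks of each chromosome that were weak in both lists (%), with 95% Wilson intervals; the number of weak shared sites is given under each chromosome and the dashed line marks the 27.4% of the whole list. The shares lie between 20.1% on chromosome 14 and 31.4% on chromosome 5 for the autosomes, and X stands at 42.3% with the widest interval.

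Genes, promoters and sequence motifs at these sites were not analysed here, because the coordinates are those of mm9 and were not converted to another build.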

How the data were processed

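ChIP-Seq peaks of EWS/ATF1 in G1297 and sarcoma-iPSC MEFs were taken from the lists deposited by the authors, 1 per cell type. Per the submitters' processing notes, reads were processed with FastQC, cutadapt, Bowtie2 2.2.0 and MACS 1.4.2 on mouse build mm9. The score of each peak was computed by the authors as -10 times the log10 of the MACS P value, with a P value limit of 1e-09. Whether both G1297 libraries entered the list, and which input was used, is not given in the sources used here. Depth is unknown, since the lists hold no counts.

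Peaks were paired by an overlap of at least 1 bp with numpy 2.4.6 and pandas 2.3.3 in Python 3.11.15, and the number of shared peaks was checked with bedtools 2.31.1. Wilson intervals and correlations were computed with scipy 1.17.1, and figures were drawn with matplotlib 3.10.9. Neighbour distances were measured between peak edges with a site's own MEF partners left out, and 12.5 kb is the default stitching distance of ROSE. Percentiles are ranks within a whole list. No test was run, because the sites were selected on the scores and overlap of both lists. The classing of peaks and the search for strong neighbours were tested on simulated lists in which every shared peak had a single partner. Groups of sites and peaks with several partners were not simulated.

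The members and the lists were chosen with earlier results of these data known. Sites were named by rule: the 6 pairs with the highest lower score and the 4 with the lowest higher score, the 3 with the largest percentile difference in each direction, the 3 nearest to the limit in each list with the nearest shared peaks outside it, the 4 groups with the most sites, the 4 most remote sites, the 2 sites and 2 MEF peaks with the most partners, the 3 widest sites, and the 3 pairs with the largest midpoint distance. Ties were ordered by position. The third site with 2 partners and the chromosome 6 and 7 groups were added after their values were seen. Alternatives were other overlap definitions, score limits and distances, X and Y left out, sites counted as MEF peaks or groups, the partner with the longest overlap, and narrow peaks.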

Additional observations from a re-analysis of the deposited data

How the results depend on the processing

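Of 53 alternative values, 37 stayed within 1.5 times the count or within the counting interval of the value reported, and 16 lay outside it. The number of weak shared sites ran from 1086 to 1663 over limits of 400 and 600 and was 1556 with a MEF limit of 599.9 set at the G1297 percentile of 500. The share of single pairs was 99.6% when the overlap had to reach 50% of the shorter peak and 99.4% when midpoints had to lie within 500 bp. With a limit of 400, midpoints lay within 100 bp in 82.0% of pairs, a strong peak was near 30.6% of sites, and another weak shared site was near 7.37%; with 600 the last value was 11.0%. With the MEF limit of 599.9 the MEF peak was the wider in 77.4% of pairs. Midpoints lay within 50 bp in 51.9% of pairs, within 200 bp in 94.0%, and within 100 bp in 86.3% of pairs with both peaks under 1000 bp wide, the last chosen after seeing the data. Within 5 kb, 15.5% of sites had a strong peak, 64.8% had no other peak and 5.68% had another weak shared site; within 50 kb these shares were 58.2%, 17.4% and 18.6%. The shares within 50 and 200 bp and those within 5 and 50 kb move by construction with the distance; for the others the cause was not tested. No paired analysis was possible because only 1 list was deposited for G1297 and 1 for the MEFs, without values per replicate, and no replicate could be left out for the same reason. The planned motif and promoter alternatives were not run, since coordinates are in mm9. Read depth is unknown, and sites just under the calling threshold in either list cannot appear among the shared ones.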
